A study of Mus musculus with 4 samples.

Results

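The genes described here are the cytotoxic effector genes of a thymic T cell lymphoma line: the granzyme genes Gzma, Gzmb and Gzmk, the granule genes Prf1, Srgn, Ctsc and Nkg7, the chemokine gene Ccl5, and Il12rb2 and Stat4 of the interleukin-12 (IL-12) pathway. They were taken by symbol, and each of the 10 has a row among the 25630 rows of the expression table. RNA was sequenced from BEKO, a mouse line of thymic lymphoma cells with the genotype given as WT, with cells kept at low density in 2 libraries and at high density in the other 2. All 4 libraries come from this 1 line, the labels name no treatment, and they give neither cell number nor culture time for the densities. Nothing in the labels ties the libraries of a group to separate cultures, so the p-values reflect library-to-library spread that may be technical only. The series as a whole concerns γδ T cells of a TH1-like kind, the state in which IL-12 signalling and cytotoxic genes are usually found.

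Cytotoxic lymphocytes store granzymes, which are serine proteases, in secretory granules bound to the proteoglycan serglycin (Srgn). Cathepsin C (Ctsc) activates granzymes by removing a dipeptide from their amino terminus, and on release perforin (Prf1) lets them into the target cell. IL-12 binds a receptor of the chains IL12RB1 and IL12RB2 and acts through the kinases JAK2 and TYK2 on STAT4, a transcription factor of the TH1 programme, while CCL5 is a chemokine made late by activated and cytotoxic T cells.

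Promoter sequences are given for 4 members whose RNA behaved differently: Gzma and Gzmk, granzyme genes on chromosome 13 with no other protein-coding gene between them in the RefSeq annotation and very unequal RNA levels, Srgn, which rose with density, and Il12rb2, the member with the most negative change. Each is the RefSeq sequence of the 250 bases before a start site, in build GRCm38.p6, on the minus strand: chr13:113100982-113101231 for Gzma, chr13:113180966-113181215 for Gzmk, chr10:62507758-62508007 for 1 of 2 listed Srgn start sites and chr6:67376189-67376438 for Il12rb2. Capitals mark matches on either strand to ACGTG, the core of the hypoxia response element, TGANTCA, an AP-1 motif, or TTCNNNGAA, a STAT motif.
Gzma promoter: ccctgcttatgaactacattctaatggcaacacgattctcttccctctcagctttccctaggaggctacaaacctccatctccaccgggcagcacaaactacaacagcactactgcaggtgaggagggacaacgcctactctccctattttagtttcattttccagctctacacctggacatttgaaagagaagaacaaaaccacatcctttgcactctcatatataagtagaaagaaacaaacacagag
Gzmk promoter: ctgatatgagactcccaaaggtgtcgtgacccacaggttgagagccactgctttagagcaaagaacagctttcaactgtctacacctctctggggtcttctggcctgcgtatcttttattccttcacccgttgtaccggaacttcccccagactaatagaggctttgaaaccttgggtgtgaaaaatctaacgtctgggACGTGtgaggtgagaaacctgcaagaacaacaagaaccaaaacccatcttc
Srgn promoter: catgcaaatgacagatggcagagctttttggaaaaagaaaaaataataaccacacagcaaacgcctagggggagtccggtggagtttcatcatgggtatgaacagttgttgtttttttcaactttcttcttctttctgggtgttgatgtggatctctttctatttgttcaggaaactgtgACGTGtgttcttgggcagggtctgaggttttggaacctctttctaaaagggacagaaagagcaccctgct
Il12rb2 promoter: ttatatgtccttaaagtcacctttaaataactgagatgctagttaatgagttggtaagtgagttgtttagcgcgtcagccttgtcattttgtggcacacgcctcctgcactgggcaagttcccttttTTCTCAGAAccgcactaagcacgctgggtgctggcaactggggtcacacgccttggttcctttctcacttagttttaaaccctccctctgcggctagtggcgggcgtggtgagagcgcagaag
Promoters of 9 of the 10 members were matched, all but that of Ccl5. ACGTG stood in the Gzmk window, 51 bases before the start site, and in the Srgn window, 70 bases before it, and 16.6% of 32851 such windows hold it. The STAT motif stood in the windows of Il12rb2 (123 bases before the start site), Ctsc and Nkg7, against 7.02% of windows, and the AP-1 motif in that of Gzmb, against 6.75%. The windows of Gzma, Prf1 and Stat4 (both start sites), and the other Srgn window, held 0 matches to the 3 motifs. These matches are a description of letters, and factor binding was not measured. Which start site the cells used is not told by values per gene.

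Values are the TPM that the authors deposited per gene, transcript abundances scaled to a fixed total. TPM divides by gene length, so levels of different genes can be set side by side, but each library sums to 1000000, so a value is a share of the RNA in the table. Between 13605 and 15553 rows were above 0 per library, most in low density library 1, and the number of reads behind them is unknown. High density was compared with low density by limma on log2(TPM + 1), for the 10936 rows averaging 1 TPM or more, and rows with an adjusted p under 0.05 count as called. An exact two-sided permutation test on 1 gene could reach no lower than p = 0.333 with these 4 libraries, so none is reported. Among all tested rows the median log2 fold change was 0.12, the shift against which each gene is to be read. That shift was 0.27 when high density library 1 was left out and −0.023 when library 2 was.

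Gzma, Srgn and Stat4 were called higher at high density, and no member was called lower. Ccl5 was also called higher, but it entered the test only through its high density values. Of the 10 members 8 passed the filter on low values, with 4 called higher and 0 called lower, and 5 of the 8 lay under 0.05 before adjustment. Over all rows tested 4.57% were called higher, 2.11% lower and 6.68% in either direction. The members were chosen with earlier results of these data known, so their count beside these shares is no test of the list. The libraries of the 2 groups did not overlap for 6 of the 8 members tested, 5 higher and 1 lower at high density, where 54.7% of all rows tested did not overlap (34.7% higher and 20% lower). The median log2 fold change of the 8 was 0.82. Because of Ccl5, the count of calls and this median hold a gene that had to differ to enter. With the filter at 5 TPM, which Ccl5 does not pass, 3 members were called higher and 1 lower. Of the 9377 rows tested at that filter 595 were called higher and 281 lower. In bulk RNA, fewer cells expressing a gene and less of its RNA per cell cannot be told apart.

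**Figure D1:**
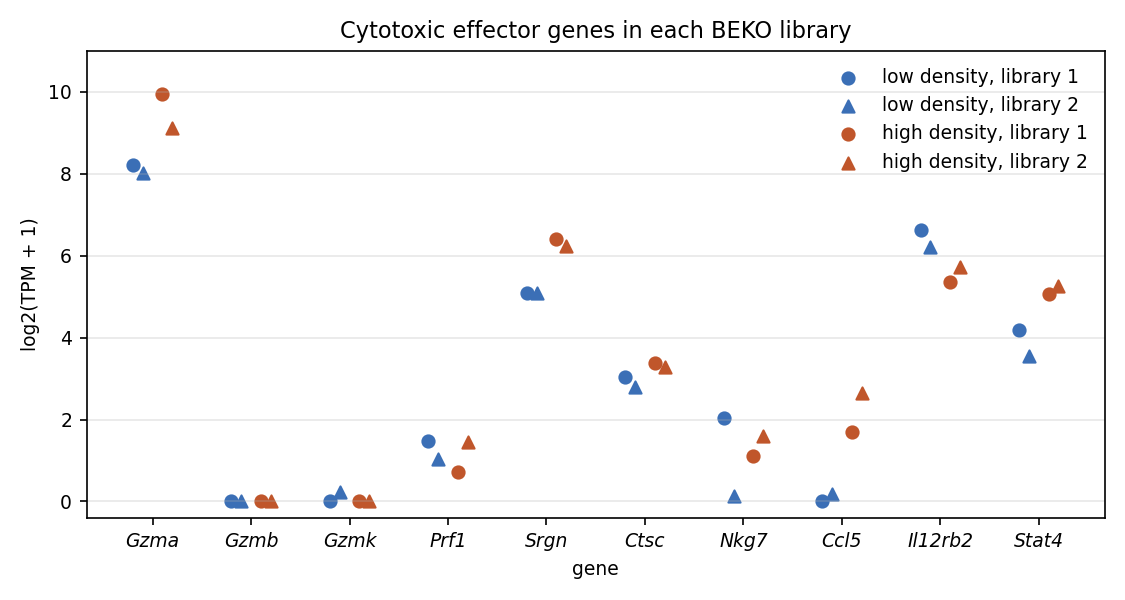
Level of each of the 10 genes, as log2(TPM + 1), in the 2 low density (blue) and 2 high density (orange) BEKO libraries. Gzma was highest in every library, Gzmb was listed at 0 in all 4, and Il12rb2 and Stat4 lay closer together at high than at low density.

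Gzma, a granzyme with trypsin-like activity, was by far the most abundant of the 10 genes. It stood at 293 and 259 TPM in the low density libraries and at 990 and 552 TPM in the high density libraries. Both high density libraries were above both low density ones, but they differed from each other by 1.79-fold. The mean went from 276 ± 24.1 to 771 ± 310 TPM (SD, n = 2 each), a 2.79-fold rise in the ratio of means (log2 fold change 1.42 ± 0.28 SE, limma adjusted p = 0.0128). In order of TPM Gzma held places 565 and 644 of the 25630 rows at low density, and places 98 and 178 at high density. The ratio of means was 2.00 with high density library 2 alone against the low density pair, and 3.58 with high density library 1 alone. Leaving out low density library 2 ended the call (limma adjusted p = 0.104).

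Almost all granzyme RNA in these cells was Gzma. Gzmb, the aspartate-specific granzyme of killer cells, was listed at 0 TPM in all 4 libraries. Gzmk, the neighbour of Gzma and also trypsin-like, was listed at 0 in 3 libraries and at 0.183 TPM in low density library 2. Of 10 granzyme rows, 7 were listed at 0 in every library, among them Gzmc, Gzmd, Gzme, Gzmf, Gzmg and Gzmn. Gzmm, a granzyme of natural killer (NK) cells and other innate-like lymphocytes, was the only other one tested and was weak, with 2.02 and 2.01 TPM in the low density and 1.12 and 2.88 TPM in the high density libraries (limma adjusted p = 0.938). Gzma made up 99.2% to 99.9% of the summed TPM of the 10 rows in each library.

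Srgn, the proteoglycan core that holds granzymes in the granule, had the closest replicates of the 4 members called higher. It was 33.0 and 32.8 TPM at low density and 83.3 and 74.2 TPM at high density. The groups were clearly apart, with libraries of a group within 1.12-fold of each other. The ratio of means was 2.39, and the log2 fold change 1.23 ± 0.25 (SE, limma adjusted p = 0.0133). In means the fold was 2.40 without low density library 1 and 2.39 without library 2, but the call was lost in both (limma adjusted p = 0.184 and 0.26). Within a library Gzma RNA was 8.89 and 7.90 times Srgn RNA at low density and 11.9 and 7.44 times at high density, so this ratio overlapped between the densities.

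Ctsc, the protease that activates granzymes, was weakly expressed, at 7.26 and 5.99 TPM at low and 9.34 and 8.73 TPM at high density. The high density libraries were above the low density ones, but the gene was not called (log2 fold change 0.40, 95% interval −0.29 to 1.09, limma adjusted p = 0.477). Cst7 encodes cystatin F, a granule inhibitor of cathepsin C, and it did rise. It was at 3.83 and 4.98 TPM at low and 13.1 and 14.6 TPM at high density, a 3.14-fold difference of means (log2 fold change 1.46 ± 0.32 SE, limma adjusted p = 0.0189). That call was lost without a filter (limma adjusted p = 0.322), after median centring (0.0573) and after quantile normalisation (0.0555). It was also lost when low density library 1 (log2 fold change 1.31) or 2 (1.62) was left out. Within a library the ratio of Cst7 to Ctsc TPM was 0.528 and 0.833 at low density and 1.40 and 1.68 at high density, without overlap. This follows from the values of both genes above, and the ratio carries no test.

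Perforin and NKG7 RNA stayed near the filter. Prf1 was at 1.80 and 1.06 TPM at low and 0.648 and 1.72 TPM at high density, so the groups overlapped. Its log2 fold change was −0.18 with a 95% interval of −1.13 to 0.77 (limma adjusted p = 0.84), and its sign turned when low density library 1 (0.044) or high density library 1 (0.18) was left out. Nkg7, a granule membrane protein needed for full degranulation, was at 3.10 TPM in low density library 1 and at 0.0889 TPM in low density library 2, on either side of its values at high density, 1.16 and 2.03 TPM. Its log2 fold change was 0.27, with a 95% interval of −0.97 to 1.52 (limma adjusted p = 0.811). Leaving out low density library 2 gave −0.68, and leaving out library 1 gave 1.23. Both intervals reach from clearly negative to clearly positive changes, so a change of either gene with density was not detectable here.

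**Figure D2:**
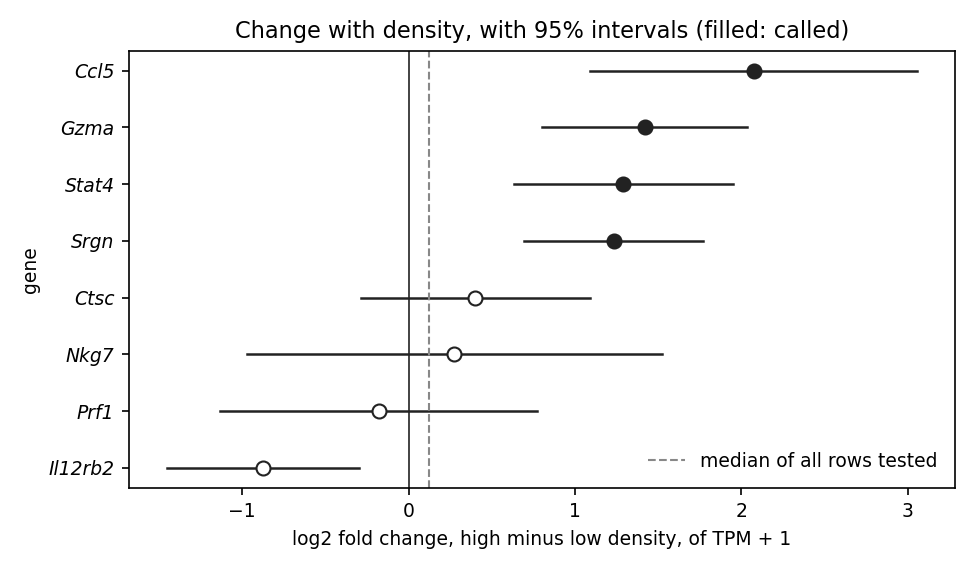
Log2 fold change of TPM + 1, high minus low density, for the 8 members tested, with 95% intervals from limma; filled points were called and the dashed line is the median of all rows tested (0.12). Ccl5, Gzma, Stat4 and Srgn were called, and Il12rb2 lay on the other side of 0 with an interval from −1.45 to −0.30.

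Ccl5 was at or near 0 at low density and above 2 TPM at high density. It was listed at 0 in low density library 1 and at 0.136 TPM in low density library 2, and reached 2.21 and 5.28 TPM at high density. The groups did not overlap, and the high density libraries differed by 2.38-fold. The log2 fold change of TPM + 1 was 2.07 ± 0.45 (SE, limma adjusted p = 0.019). Ccl5 was tested only because its high density values lifted its mean over the filter, so this p is a description and no support for a rise. No ratio of means is given because the low density mean rests on 1 value. The size depends on the pseudocount: the log2 fold change was 4.52 with 0.1 and 0.76 with 5 in place of 1. Even at high density Ccl5 was far below Gzma, Srgn and both IL-12 pathway members in TPM.

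The receptor chain and the transcription factor of the IL-12 pathway had changes of opposite sign. Stat4 rose from 17.0 and 10.7 TPM to 32.2 and 37.2 TPM, with no overlap. The ratio of means was 2.50 (log2 fold change 1.29 ± 0.30 SE, limma adjusted p = 0.0262). Against low density library 2 alone it was 3.23 and against library 1 alone 2.04, with the call lost in both (limma adjusted p = 0.145 and 0.703). Il12rb2, the signalling chain that sets IL-12 responsiveness, was at 97.1 and 73.4 TPM at low density and at 39.9 and 52.0 TPM at high density. Both high density libraries lay below both low density ones, with means of 85.2 ± 16.8 and 46.0 ± 8.56 TPM (SD, n = 2 each). The gene missed the threshold (log2 fold change −0.88 ± 0.26 SE, limma adjusted p = 0.0707). It passed with each library centred on its median (limma adjusted p = 0.0479), after quantile normalisation (0.0493), with the filter raised to 5 TPM (0.0493), and without high density library 1 (0.0406) or 2 (0.0109). Under these 5 settings 1.41%, 1.32%, 3%, 6.81% and 10.9% of all rows tested were called lower. It did not pass under the other 8 settings, the reported one included, among them no filter (limma adjusted p = 0.49), no trend (0.117) and leaving out low density library 1 (0.698) or 2 (0.435).

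A ratio within a library does not depend on how libraries are scaled to each other. Stat4 TPM divided by Il12rb2 TPM was 0.176 and 0.146 at low density and 0.807 and 0.714 at high density. Il12rb2 RNA was thus 5.70 and 6.83 times Stat4 RNA at low density, against 1.24 and 1.40 times at high density. The partner chain Il12rb1, at 30.9 and 26.5 TPM at low and 36.7 and 38.1 TPM at high density, was not called (log2 fold change 0.38, 95% interval −0.19 to 0.94, limma adjusted p = 0.416). Il12rb2 over Il12rb1 was 3.15 and 2.77 in the low density and 1.09 and 1.36 in the high density libraries. These ratios were chosen after the values were seen and carry no test.

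**Figure D3:**
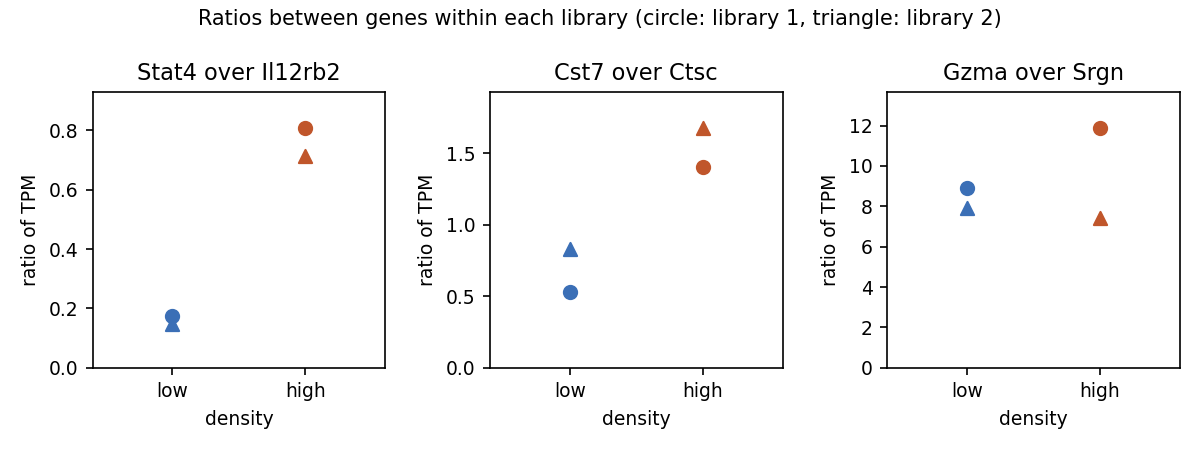
Ratio of TPM between 2 genes within each library (circle, library 1; triangle, library 2), with low density in blue, high density in orange and axes from 0. Stat4 over Il12rb2 and Cst7 over Ctsc did not overlap between the densities, while Gzma over Srgn did. None of these ratios carries a test.

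The genes that work beside these members were described through 5 lists, none of which holds a member. Of their 69 genes, 39 were tested, 2 were called higher (Cst7 and Irf1) and 1 lower (Socs1), with a median log2 fold change of 0.41 beside 0.12 for all rows tested. The 3 calls are 7.69% of the genes tested, near the 6.68% of all rows called. In the list for granule storage, processing and inhibitors 12 of 14 genes were tested, 1 was called higher (Cst7) and 0 lower, and the median was 0.50. That median and the 0.41 hold Cd63 (named after its values were seen), which passed the filter only through its low density values. It was at 4.81 and 0.418 TPM at low and 0 and 0.136 TPM at high density. The lysosomal membrane gene Lamp1 was high and close between the groups, at 240 and 205 TPM at low and 225 and 230 TPM at high density. In the list for granule release 13 of 16 were tested, with 0 called and a median of 0.27. Its genes of smallest p were Stxbp2, the Munc18-2 protein of granule fusion (log2 fold change 0.89, limma adjusted p = 0.0802), Sytl3, a Rab27 effector (−0.73, 0.0931), and Unc13d, which primes granules for fusion (0.69, 0.131). Unc13d was at 48.2 and 38.2 TPM at low and 64.1 and 75.9 TPM at high density, and Rab27a, the GTPase that docks granules, at 30.7 and 25.8 against 39.5 and 41.3 TPM (limma adjusted p = 0.265). Vamp7 (named after its values were seen) went the other way, at 43.8 and 43.4 against 29.1 and 31.4 TPM (limma adjusted p = 0.248). Of the 13 genes tested 6 were higher and 2 lower at high density without overlap, where 34.7% and 20% of all rows tested were.

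In the list for IL-12, interferon-γ and type 1 factors 12 of 23 genes were tested, 1 was called higher and 1 lower, and the median was 0.60. That median and the 0.41 of all lists hold Tyk2 (named after its values were seen), which passed the filter only through its high density values. It was at 0.743 and 0.756 TPM at low and 1.59 and 3.74 TPM at high density. Irf1, an interferon-regulated factor that acts in TH1 responses, rose from 48.3 and 44.7 to 86.7 and 104 TPM (log2 fold change 1.02 ± 0.24 SE, limma adjusted p = 0.0308). Its call was lost without a filter (limma adjusted p = 0.301), after median centring (0.0518) and without the trend (0.0618). The call also went when low density library 1 (log2 fold change 1.07) or 2 (0.96) was left out. Socs1, an inhibitor of JAK signalling, fell from 140 and 123 to 63.5 and 76.4 TPM (log2 fold change −0.90 ± 0.24 SE, limma adjusted p = 0.0462). Its call was lost without a filter (limma adjusted p = 0.343), without the trend (0.0882) and when low density library 1 (log2 fold change −0.81) or 2 (−0.99) was left out. Jak2, the kinase on the IL12RB2 chain, was at 17.8 and 14.9 TPM at low and 26.7 and 31.0 TPM at high density and was not called (limma adjusted p = 0.114). Genes at the core of the TH1 programme were weak or listed at 0, and those in the next 3 sentences were named after their values were seen. Ifng, the TH1 cytokine, was listed at 0 in all 4 libraries, as were Il18r1, Il18rap and Cxcr3. Tbx21, which encodes T-bet, lay between 0.0921 and 0.258 TPM, and Eomes, its relative, between 0.381 and 0.564 TPM. Runx3, a factor of cytotoxic cells below the filter, was at 0.223 and 0.223 TPM at low and 1.07 and 1.86 TPM at high density. In the list for effector chemokines and death ligands only Tnfsf10 (TRAIL) of 10 genes was tested, and it was not called (limma adjusted p = 0.64). The chemokine genes Ccl3, Ccl4 and Xcl1 were listed at 0 in all 4 libraries.

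**Figure D4:**
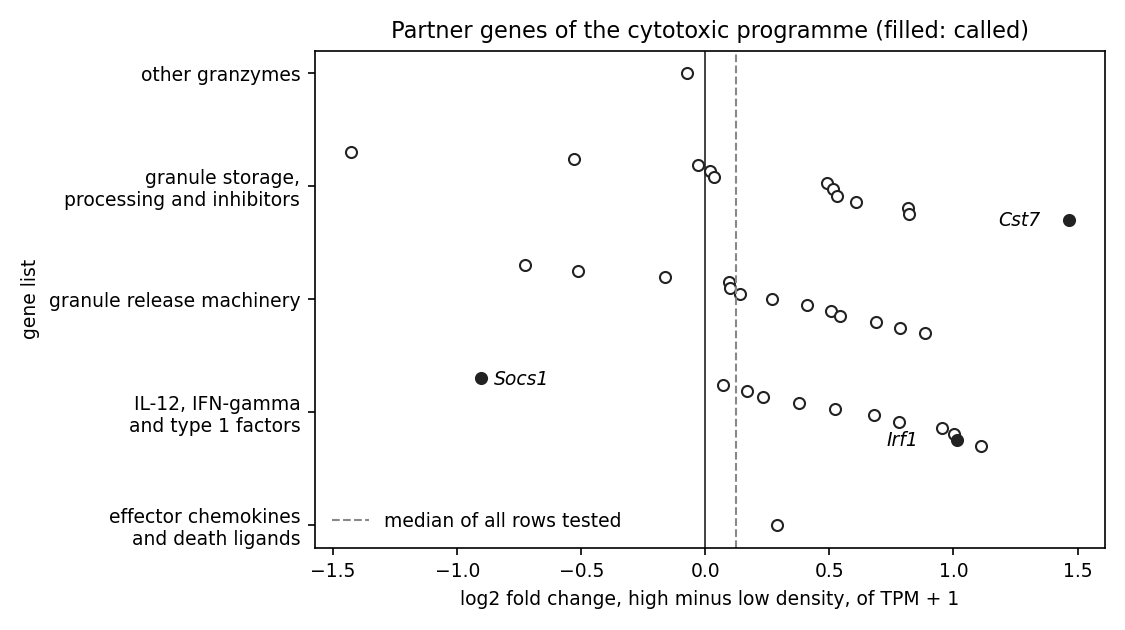
Log2 fold change of TPM + 1, high minus low density, for each tested gene of the 5 partner lists; filled points were called, and the dashed line is the median of all rows tested. Cst7 and Irf1 were called higher and Socs1 lower, out of 39 genes tested.

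Cytotoxic genes are also made by NK cells and mast cells, so markers of other cell types were read beside them. The 12 T cell markers were all tested and summed to between 5850 and 6950 TPM per library. At high density 3 of them were called higher and 0 lower, where 4.57% and 2.11% of all rows tested were. These were the receptor constant regions Trac (14.4 and 13.4 against 84.8 and 116 TPM) and Trdc (18.1 and 16.0 against 101 and 77.1 TPM) and the adhesion gene Cd2 (99.8 and 91.4 against 310 and 278 TPM), with ratios of means of 7.22, 5.23 and 3.08 (limma adjusted p = 0.000326, 0.000911 and 0.00225). Their changes move with those of Gzma, Srgn, Ccl5 and Stat4, and their part in them was not tested. Of the 12 markers 5 were higher and 2 lower at high density without overlap, where 34.7% and 20% of all rows tested were. The 2 lower ones were Cd3e, an invariant receptor chain, and Lck, both named after their values were seen. Cd3e was at 473 and 458 against 434 and 324 TPM, and Lck at 801 and 732 against 659 and 600 TPM. Neither was called (limma adjusted p = 0.456 and 0.469). Of 11 NK cell markers 7 were listed at 0 in every library, among them Ncr1, Klrd1 and Klrk1, and their sum was 2.73 and 3.31 TPM at low and 1.89 and 6.02 TPM at high density, with Fcer1g the highest of them by mean. Tyrobp, an adaptor of NK and myeloid cells below the filter, was at 0.275 and 0.126 TPM at low density and at 0.822 and 2.45 TPM at high density (named after its values were seen). Of 10 mast cell and basophil markers 8 were at 0 in every library, including Fcer1a and Mcpt4, and the sum was 6.83 and 3.95 TPM at low and 7.33 and 4.71 TPM at high density, nearly all Cpa3. The sums of both lists overlapped between the groups; their part in the changes of Gzma and Srgn was not tested. Macrophage and granulocyte markers summed to 20.6 to 31.9 TPM, with Lyz2 and Cd14 at 0. Cd68, the highest of them, was at 14.9 and 17.7 TPM at low density and at 9.36 and 8.46 TPM at high density, while Itgam was at 8.27 and 6.62 against 16.1 and 12.1 TPM, both without overlap and neither called (limma adjusted p = 0.129 and 0.134). S100a9 (named after its values were seen) was at 7.36 TPM in low density library 1 and listed at 0 elsewhere. B cell markers reached at most 3.00 TPM and erythroid markers at most 4.38 TPM. Stromal and epithelial markers stood at 108 TPM in low density library 1 and between 38.2 and 52.5 TPM in the others, mostly Pecam1. Collagen genes made up much of the difference, with Col1a1 (named after its values were seen) at 30.3 TPM there and at most 0.236 TPM elsewhere. Without that library the ratio of means was 2.97 for Gzma, 2.40 for Srgn, 3.23 for Stat4 and 0.63 for Il12rb2. With all 4 libraries these ratios were 2.79, 2.39, 2.50 and 0.54. The log2 fold change of Ccl5 was 1.98 without that library and 2.07 with all 4. These values rest on 1 low density library, and the part of these markers in the changes was not tested.

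How far the 4 calls held varied with the scaling of the libraries, with the filter and with the library left out. Without a filter 0 of the 4 were called (limma adjusted p = 0.481 for Gzma, 0.167 for Srgn, 0.408 for Ccl5 and 0.425 for Stat4), where 0 of all rows were called higher. The log2 fold changes were positive under all 13 settings for Gzma, Srgn and Stat4 and under all 12 that could be run for Ccl5. With each library centred on its median they were 1.23 for Gzma, 1.05 for Srgn, 1.89 for Ccl5 and 1.10 for Stat4, and 0 of the 4 were called (limma adjusted p = 0.127, 0.0615, 0.0655 and 0.0621, all 4 under 0.05 before adjustment), where 1.46% of all rows were called higher. After quantile normalisation Gzma (limma adjusted p = 0.0443) was the only one of the 4 called, against 1.98% of all rows. Without low density library 1, Gzma and Ccl5 were called, against 2.14% of all rows, and without low density library 2 Ccl5 only, against 1.33%. In these fits the low density group is a lone library and the spread comes from the high density pair. Calls of Ccl5 in these fits rest on the rows chosen with all 4 libraries. With the filter taken again over the remaining libraries, an alternative added after the data were seen, Ccl5 was not called when low density library 1 was left out (limma adjusted p = 0.0584) and fell below the filter when high density library 2 was. All 4 were called without high density library 1 and likewise without library 2, where 23.1% and 11.2% of all rows were called higher.

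**Figure D5:**
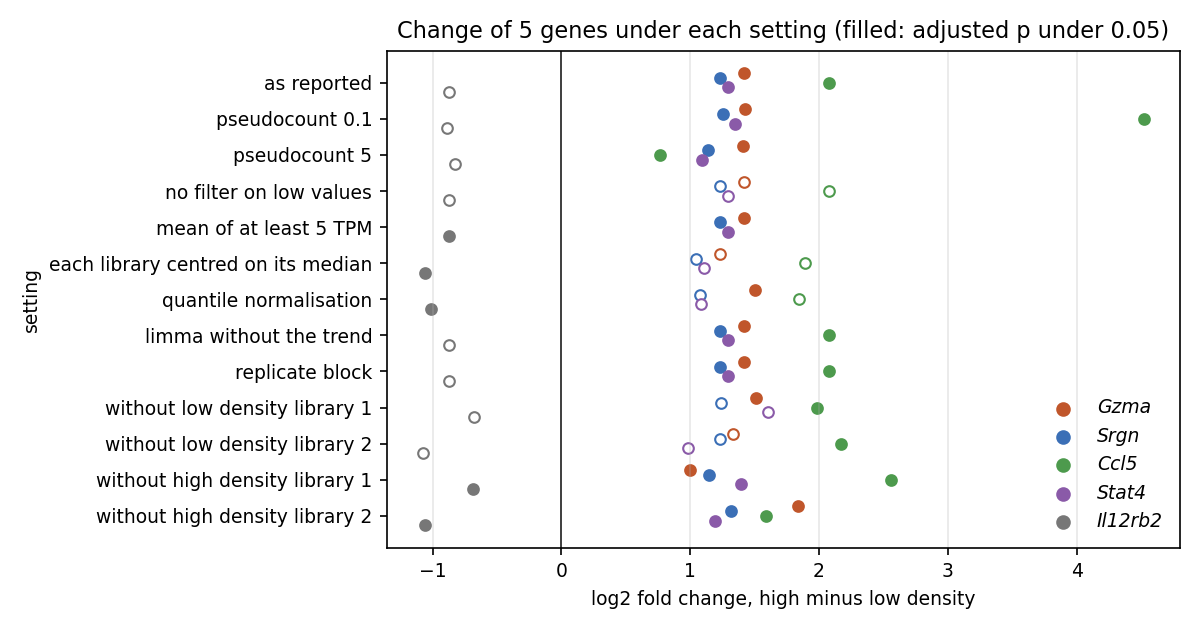
Log2 fold change, high minus low density, of Gzma, Srgn, Ccl5, Stat4 and Il12rb2 under the reported setting and each alternative; filled points had an adjusted p under 0.05. All points of the first 4 genes lie above 0 and all of Il12rb2 below it, but Ccl5 passed the filter only through its high density values. Most of the open points of the 4 are under centring, quantile normalisation, no filter, and without a low density library.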

How the data were processed

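The 4 libraries are strand-specific per the labels' protocols. The authors deposited 1 table of TPM values per gene. The submitters' processing notes name genome build mm9 and DESeq2 version 1.2.10 with no role; aligner, counter, annotation and gene lengths were not given in the sources used here. TPM keeps no depth, so no counting interval is given. Each column was tied to its sample through that sample's description. All 699 rows named by Ensembl identifier were matched to symbols.

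Values were analysed as log2(TPM + 1) with limma 3.58.1 in R 4.3.3 (group term, moderated variances with a mean-variance trend, two-sided), over the 10936 rows averaging 1 TPM or more, with Benjamini-Hochberg adjustment across these rows. The fit was tested on simulated data with a common spread for all rows and no weak gene changed. That test does not cover genes near the filter, such as Ccl5, Prf1 and Nkg7. A log2 fold change on this scale understates changes of weak genes. The 95% intervals come from the same fit.

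The members and gene lists were chosen with earlier results of these data known. All members are named; from each partner list the called genes, or otherwise up to 3 of smallest p, and from each marker list of another cell type the gene of highest mean and defining markers at 0. Other listed genes (Lamp1, Rab27a, Jak2, Il12rb1, Itgam and those marked in the text) were named after their values were seen. The 12 alternatives were other pseudocounts (0.1, 5) and filters (none, 5 TPM), median centring, quantile normalisation, no trend, the replicate number as a block, and leaving out each library, with the tested rows kept; taking the filter again there was added after the data were seen. Promoter sequences are RefSeq's, in GRCm38.p6, another build than mm9, and no position was carried between builds.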

Additional observations from a re-analysis of the deposited data

How the results depend on the processing

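Directions of Gzma, Srgn, Stat4, Ctsc and Il12rb2 held under every alternative. That of Ccl5 held where it could be run, but Ccl5 passed the filter only through its high density values, so this is no support for a rise. Ccl5, Prf1 and Nkg7 have means under 5 TPM and drop out at that filter. The sign of the log2 fold change turned for Prf1 (0.044 without low density library 1, 0.18 without high density library 1, with a lowest value of −0.54 without high density library 2) and for Nkg7 (−0.68 without low density library 2, with a highest value of 1.23 without low density library 1), neither of them called. Members called higher (4 as reported) numbered 0 without a filter and 0 after median centring, with 4 at an unadjusted p under 0.05 by limma in both, 1 after quantile normalisation, and 1 to 4 with 1 library left out. Members called lower (0 as reported, 1 at an unadjusted p under 0.05) numbered 1, always Il12rb2, at a mean of at least 5 TPM, after median centring and after quantile normalisation, and 0 to 1 with 1 library left out. Over all rows, 500 higher calls became 0 without a filter (2565 rows at an unadjusted p under 0.05 in either direction), 160 after median centring, 216 after quantile normalisation and 145 to 2525 with 1 library left out. The 231 lower calls became 0, 144 after quantile normalisation, 144 without the trend and 86 to 1193. Median centring took the share of higher calls from 68.4% to 51.0%, and moved the all-row median of the log2 fold change from 0.12 to −0.063. Partner genes called higher (2) numbered 0 without a filter (12 unadjusted), 0 after median centring (6 unadjusted), 1 after quantile normalisation, 1 without the trend, and 0 to 13 with 1 library left out. Those called lower (1) numbered 0 without a filter (3 unadjusted), 0 without the trend (3 unadjusted) and 0 to 2. Leaving out either low density library ended the calls of Cst7, Irf1 and Socs1. The cause of these moves was not tested. Labels give both groups replicate numbers 1 and 2 and do not say whether equal numbers are pairs. The differences between replicates correlated at 0.042 over rows, which cannot decide it. The reported fit has no term for pairs. With a replicate block 4 members were called higher and 0 lower, and 4 partner genes higher and 2 lower, with 600 rows higher and 337 lower overall. The depth behind the TPM values is unknown, and genes listed at 0 cannot be given a detection limit.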
